A study of Mus musculus with 8 samples.

Results

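The mitochondrial ribosome was followed here through the genes whose symbols begin with Mrpl or Mrps followed by a number, the names given to proteins of its large and its small subunit. Of 21759 genes in the deposited table, 76 had such a name, 47 with Mrpl and 29 with Mrps. The symbols alone chose them, with no use of their values, and all 76 passed the filter on low counts. Their lowest count in any library was 118, for Mrpl55.

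Mitochondria keep a small genome of their own and translate its messages on a dedicated ribosome, which sits at the inner membrane and makes core subunits of the respiratory chain and of ATP synthase. The ribosomal RNAs of this ribosome come from the mitochondrial genome, whereas its proteins are encoded in the nucleus, made in the cytosol and imported. Some of these proteins descend from bacterial ribosomal proteins and others have no bacterial counterpart. The kidney, and above all its proximal tubule, is rich in mitochondria because reabsorption of filtered solutes consumes much ATP.

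The RNA came from 8 male knock-in mice, aged 8 months, of a model of MUC1 kidney disease. In patients this inherited disease of the tubules is caused by a frameshifted MUC1 protein that is retained in the secretory pathway. The control group was 4 mice given vehicle (saline), and the treated group was 4 mice given the small molecule BRD4780 at 50 mg/kg, in both groups daily for 7 days. Titles of the treated samples call the treatment AGN50. All 8 mice carried the knock-in, so the comparison is between 2 groups of diseased animals. The RNA of each mouse was extracted from a sagittal kidney slice and its mRNA was captured on oligo-dT, so each value is an average over all cell types of the slice. In such bulk RNA, fewer cells of a type and less RNA per cell cannot be told apart.

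Library totals were 16.6 to 28.5 M counts with vehicle and 5.74 to 28.2 M with BRD4780. BRD4780 replicate 3 stood apart from the other treated mice: among treated pairs the chi-square per degree of freedom was 31.7 to 90.3 for pairs that included it and 7.98 to 29.8 for the others. For the subunits and companion lists, medians and counts of edgeR calls are therefore also given without it. So are the medians of structural classes and the named genes of these groups whose calls this mouse changes. All 10 proximal tubule markers of the list used here, among them Lrp2, Cubn and Slc34a1, had at least 3 counts in every library. Values per mouse are counts per M (CPM) of TMM-scaled totals, means carry ± SD over 4 mice, and log2 fold changes are BRD4780 over vehicle ± SE from edgeR. The TMM factors were 0.9763, 0.9664, 0.9874 and 0.9751 in the vehicle mice and 1.042, 1.058, 0.9586 and 1.042 in the treated mice. A higher factor lowers all CPM of a library, so small differences depend on this scaling. No fit without such scaling was made. The p-values measure the spread between these mice.

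The mitochondrial ribosomal protein genes had slightly lower median levels in the treated mice, and no single gene passed edgeR's test over all 8 mice. DESeq2 called 5 of the 76 lower, or 6.58% against 3.84% of all genes, and 0 higher, against 6.43%. Limma's voom called 21 lower, or 27.6% against 11.1% of all genes, and 1 higher, against 12.3%. Of the 76 genes, 63 had a log2 fold change below 0, which is 82.9%, against 48.4% of the 13474 genes tested. The median log2 fold change was -0.12 for the 76 genes and 0.01 for all genes, and without treated replicate 3 these medians were -0.13 and 0.02. Values ran from -0.33 for Mrpl49, which is 0.793-fold of vehicle, to 0.22 for Mrpl23, which is 1.16-fold, and 56 of the 76 lay within 0.2 of 0.

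By edgeR with Benjamini-Hochberg adjustment, 0 of the 76 genes had an adjusted p under 0.05, against 2.92% of all genes in either direction and 0.623% that were lower. The smallest adjusted p-values among them in edgeR were 0.0563 for Mrps14 and 0.0608 for Mrpl49. With an unadjusted p under 0.05 there were 20 lower genes, or 26.3%, against 10.7% of all genes, and 0 higher genes against 13.9%. Every treated mouse lay below every vehicle mouse for 13 genes, or 17.1%, against 5.16% of all genes. The 13 were Mrpl16, Mrpl18, Mrpl22, Mrpl38, Mrpl39, Mrpl42, Mrpl45, Mrpl49, Mrps5, Mrps11, Mrps14, Mrps17 and Mrps22, of which Mrps5 lies outside the rule for named genes. Every treated mouse lay above every vehicle mouse for 1 gene, Mrpl17, against 7.44% of all genes. Without treated replicate 3, the groups were apart for 27 genes with lower and 8 genes with higher treated mice, against 16.6% and 17.9% of all genes. These genes share libraries and are no independent replicates, so the counts describe the group and carry no test.

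**Figure D1:**
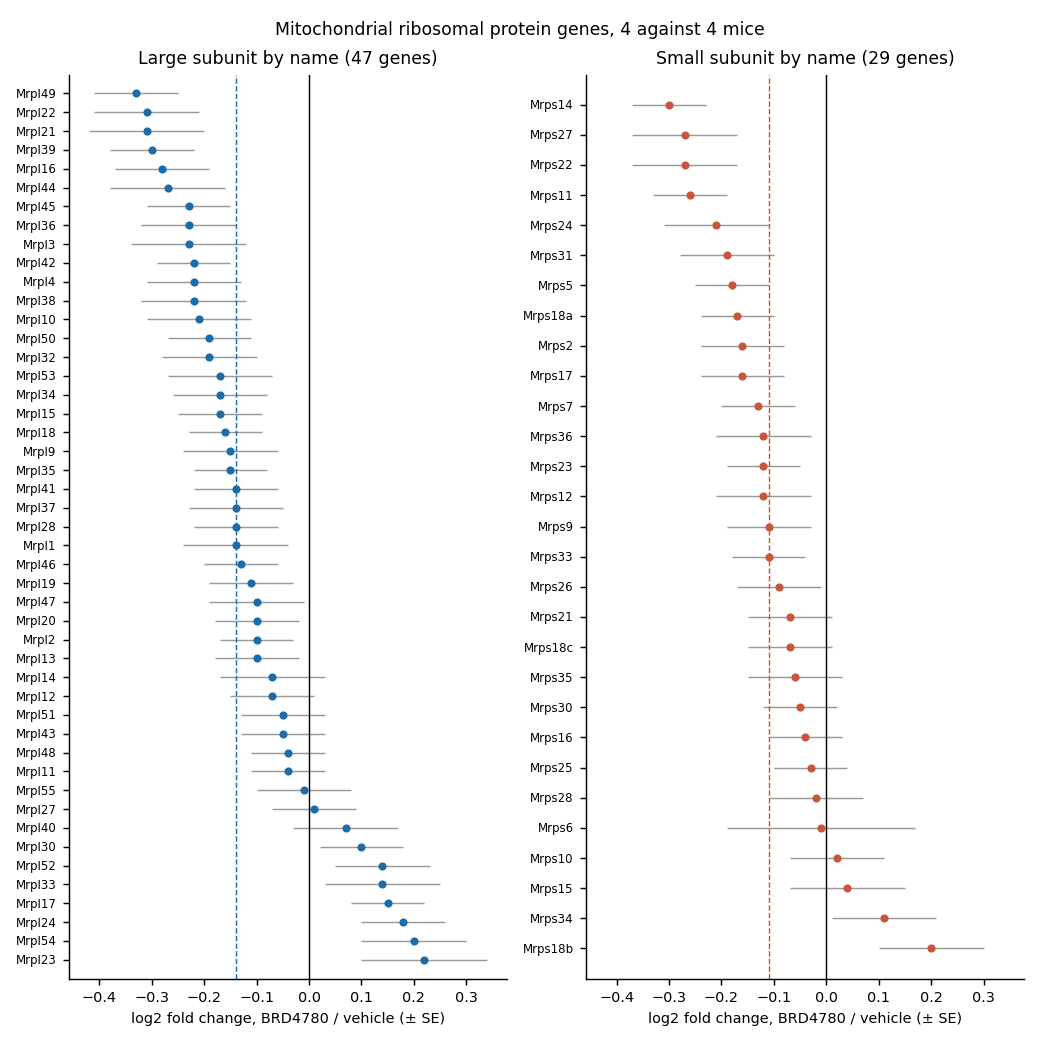
The log2 fold change of each of the 47 Mrpl genes (left) and 29 Mrps genes (right) is plotted on the horizontal axis, with bars for ± 1 SE, a solid line at 0 and a dashed line at the median of the panel. Points left of 0 number 38 of 47 and 25 of 29, and the medians lie at -0.14 and -0.11.

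The spread behind these values was small. The median SE of the 76 log2 fold changes was 0.08, the largest was 0.18 for Mrps6 and the next 0.12. The median coefficient of variation among vehicle mice was 5.51% for the 76 genes and 10.0% for all genes. Among treated mice it was 7.46% for the 76 genes and 14.6% for all genes. The median vehicle level was 58.7 CPM for the 76 genes and 20.7 CPM for all genes. Spread tends to fall as counts rise, and genes of like level were not compared.

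The large subunit carries the peptidyl transferase centre, where peptide bonds form. Among its proteins without a bacterial counterpart, 17 genes had a median log2 fold change of -0.14 (-0.17 without treated replicate 3), and 14 of them lay below 0. Mrpl49, one of these mitochondria-specific proteins, measured 69.9, 71.2, 67.0 and 69.0 CPM in the vehicle mice and 54.2, 52.0, 63.3 and 49.7 CPM in the treated mice. The treated mice all lay below the vehicle mice, with replicate 3 the nearest to them. For Mrpl49 the log2 fold change was -0.33 ± 0.08 (edgeR adjusted p = 0.0608), and -0.41 without that mouse (adjusted p = 0.00279). Mrpl39, whose protein has a fold related to threonyl-tRNA synthetase, measured 58.7, 59.0, 56.2 and 54.3 CPM with vehicle and 44.0, 44.5, 53.1 and 43.3 CPM with BRD4780. Here too replicate 3 was the highest treated mouse and the groups did not overlap. Its log2 fold change was -0.30 ± 0.08 (edgeR adjusted p = 0.0757), and -0.38 without replicate 3 (adjusted p = 0.00465). Mrpl42, another protein of this class, measured 110.2, 102.7, 102.5 and 93.1 CPM with vehicle against 91.2, 83.8, 88.6 and 86.3 CPM with BRD4780. The groups were apart by a small gap, between 93.1 and 91.2 CPM, and the log2 fold change was -0.22 ± 0.07 (edgeR adjusted p = 0.105), and -0.23 without replicate 3 (adjusted p = 0.0542).

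Large subunit proteins with a bacterial counterpart had a similar median and, over all 8 mice, a smaller share of genes apart. Their 30 genes had a median log2 fold change of -0.13 (-0.14 without treated replicate 3), with 24 below 0. An unadjusted edgeR p under 0.05 with a lower level was found in 7 of these 30 genes, or 23.3%. It was found in 7 of the 17 without a bacterial counterpart, or 41.2%, and in 10.7% of all genes. Every treated mouse lay below every vehicle mouse in 3 and in 5 genes, or 10.0% and 29.4%, against 5.16% of all genes. DESeq2 called 0 and 3 lower, or 0% and 17.6%, against 3.84% of all genes. Without treated replicate 3 the classes were closer. The treated mice then lay below every vehicle mouse in 11 of the 30 and 7 of the 17 genes, against 16.6% of all genes. In that fit edgeR called 7 and 5 lower, or 23.3% and 29.4%, against 11.3% of all genes. The difference between these classes was not tested. Mrpl16, which lies close to the tRNA sites, measured 65.0, 61.9, 60.0 and 60.7 CPM with vehicle and 52.7, 46.2, 58.1 and 46.7 CPM with BRD4780. The groups did not overlap, and the log2 fold change was -0.28 ± 0.09 (edgeR adjusted p = 0.0965), and -0.35 without replicate 3 (adjusted p = 0.00983). Mrpl21 measured 28.0, 28.0, 25.5 and 23.8 CPM with vehicle against 18.4, 19.3, 24.8 and 22.8 CPM with BRD4780, so treated replicate 3 lay inside the vehicle range. Its log2 fold change was -0.31 ± 0.11 over all 8 mice and -0.41 without replicate 3, with edgeR adjusted p-values of 0.136 and 0.019.

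The stalk of the large subunit recruits translation factors. Mrpl12 forms the flexible stalk itself, Mrpl10 anchors it, and Mrpl11, Mrpl53 and Mrpl54 lie at or near its base. The median over these 5 genes was -0.07 (-0.10 without treated replicate 3), with 4 below 0. Mrpl12 measured 246.9, 270.5, 231.4 and 241.5 CPM with vehicle and 244.8, 230.8, 248.2 and 219.7 CPM with BRD4780, which overlap (log2 fold change -0.07 ± 0.08). Mrpl10 measured 119.2, 126.3, 112.4 and 125.2 CPM with vehicle and 105.5, 94.4, 123.0 and 94.0 CPM with BRD4780. Only treated replicate 3 reached the vehicle range, and the edgeR adjusted p of Mrpl10 was 0.208 with it and 0.0179 without it. Mrpl54 went the other way: vehicle mice had 59.6, 61.0, 60.0 and 57.1 CPM, and treated mice 78.1, 68.7, 55.8 and 69.9 CPM. In Mrpl54, replicate 3 was the lowest of all 8 mice while the other treated mice were above every vehicle mouse. Its log2 fold change was 0.20 ± 0.10 (edgeR adjusted p = 0.242), and 0.28 without replicate 3 (adjusted p = 0.0196). Anchor and neighbour of the stalk thus had values of opposite sign.

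Values from both ends of the range met at the rim of the exit tunnel, through which the nascent chain leaves toward the inner membrane. Of its 6 genes, 3 lay below 0 and 3 above, with a median of 0.02 (0.04 without treated replicate 3). Mrpl22 measured 36.5, 36.0, 30.6 and 30.5 CPM with vehicle and 29.0, 24.6, 28.8 and 24.9 CPM with BRD4780. No treated mouse reached the lowest vehicle mouse, and the log2 fold change was -0.31 ± 0.10 (edgeR adjusted p = 0.0981), and -0.35 without replicate 3 (adjusted p = 0.0358). Mrpl45, which contacts the inner membrane, measured 67.8, 65.6, 63.8 and 66.2 CPM with vehicle against 59.7, 49.8, 62.5 and 52.5 CPM with BRD4780. The groups were apart, with a log2 fold change of -0.23 ± 0.08 (edgeR adjusted p = 0.141), and of -0.29 without replicate 3 (adjusted p = 0.0279). On the other side of 0, Mrpl23 measured 37.4, 39.0, 39.3 and 32.3 CPM with vehicle and 46.9, 48.1, 34.0 and 43.3 CPM with BRD4780. Treated replicates 1, 2 and 4 lay above every vehicle mouse and replicate 3 within their range. This gave Mrpl23 a log2 fold change of 0.22 ± 0.12 (edgeR adjusted p = 0.268), and 0.32 without replicate 3 (adjusted p = 0.026). Mrpl17 measured 70.2, 75.2, 70.3 and 69.0 CPM with vehicle against 76.0, 83.6, 76.4 and 79.0 CPM with BRD4780. It was the 1 gene whose treated mice all exceeded all vehicle mice, with a log2 fold change of 0.15 ± 0.07 (edgeR adjusted p = 0.212). Mrpl24 measured 114.8 to 120.0 CPM with vehicle and 119.6 to 150.2 CPM with BRD4780, with a log2 fold change of 0.18 ± 0.08. Mrpl47 measured 20.1 to 22.9 CPM and 18.8 to 21.8 CPM, with a log2 fold change of -0.10 ± 0.09, so the class held both of the directions seen in the large subunit.

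The central protuberance, where in mammals a mitochondrial tRNA takes the place of a small bacterial ribosomal RNA, had a median of -0.04 (-0.03 without treated replicate 3) over 7 tested genes, 5 of them below 0. Mrpl18 measured 77.0, 83.2, 76.3 and 80.2 CPM with vehicle against 72.0, 69.7, 74.4 and 67.6 CPM with BRD4780. Its groups did not overlap, and the log2 fold change was -0.16 ± 0.07 (edgeR adjusted p = 0.182). Mrpl38 measured 92.6, 104.7, 90.9 and 92.2 CPM with vehicle and 90.8, 77.2, 89.0 and 67.8 CPM with BRD4780. The gap between its groups, 90.9 against 90.8 CPM, was far smaller than the spread within either (log2 fold change -0.22 ± 0.10).

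The small subunit binds the messenger RNA and decodes it. Its proteins with a bacterial counterpart, 17 genes, had a median log2 fold change of -0.11 (-0.10 without treated replicate 3), with 14 below 0. Mrps14, a protein of the subunit's head, measured 71.6, 70.6, 69.9 and 68.5 CPM with vehicle against 61.7, 55.4, 58.8 and 52.0 CPM with BRD4780. All treated mice were lower, and replicate 3 lay in the middle of them. Its log2 fold change of -0.30 ± 0.07 had the smallest edgeR adjusted p of the 76 genes, 0.0563, and was -0.31 without replicate 3 (adjusted p = 0.0161). Mrps11, a platform protein, measured 38.9, 38.0, 37.4 and 37.3 CPM with vehicle and 33.6, 30.8, 33.1 and 28.8 CPM with BRD4780. These groups were apart as well, at a log2 fold change of -0.26 ± 0.07 (edgeR adjusted p = 0.0827), and of -0.28 without replicate 3 (adjusted p = 0.029). Mrps17 measured 52.4 to 61.6 CPM with vehicle and 46.2 to 52.2 CPM with BRD4780, a log2 fold change of -0.16 ± 0.08. The highest log2 fold changes in the class were those of Mrps18b at 0.20, Mrps15 at 0.04 and Mrps10 at 0.02. For Mrps15, treated replicate 1 had 61.9 CPM and the other treated mice 41.3 to 49.9 CPM, beside 48.1 to 50.2 CPM with vehicle.

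Small subunit proteins without a bacterial counterpart, 9 genes, had a median of -0.11 (-0.10 without treated replicate 3), with 8 below 0. Mrps22 measured 29.0, 28.8, 30.0 and 29.9 CPM with vehicle and 24.9, 22.7, 28.6 and 20.9 CPM with BRD4780. The highest treated mouse, replicate 3, lay just under the lowest vehicle mouse, and the log2 fold change was -0.27 ± 0.10 (edgeR adjusted p = 0.141), and -0.35 without replicate 3 (adjusted p = 0.0141). Mrps27, a pentatricopeptide repeat protein, measured 38.0, 35.3, 29.2 and 35.7 CPM with vehicle against 27.8, 27.1, 32.1 and 27.1 CPM with BRD4780. Only treated replicate 3 entered the vehicle range. Mrps27 had a log2 fold change of -0.27 ± 0.10 (edgeR adjusted p = 0.137), and -0.34 without replicate 3 (adjusted p = 0.0324). Mrps34 measured 49.1 to 53.7 CPM with vehicle and 50.0 to 66.7 CPM with BRD4780, a log2 fold change of 0.11 ± 0.10, and Mrps25 had -0.03 ± 0.07.

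**Figure D2:**
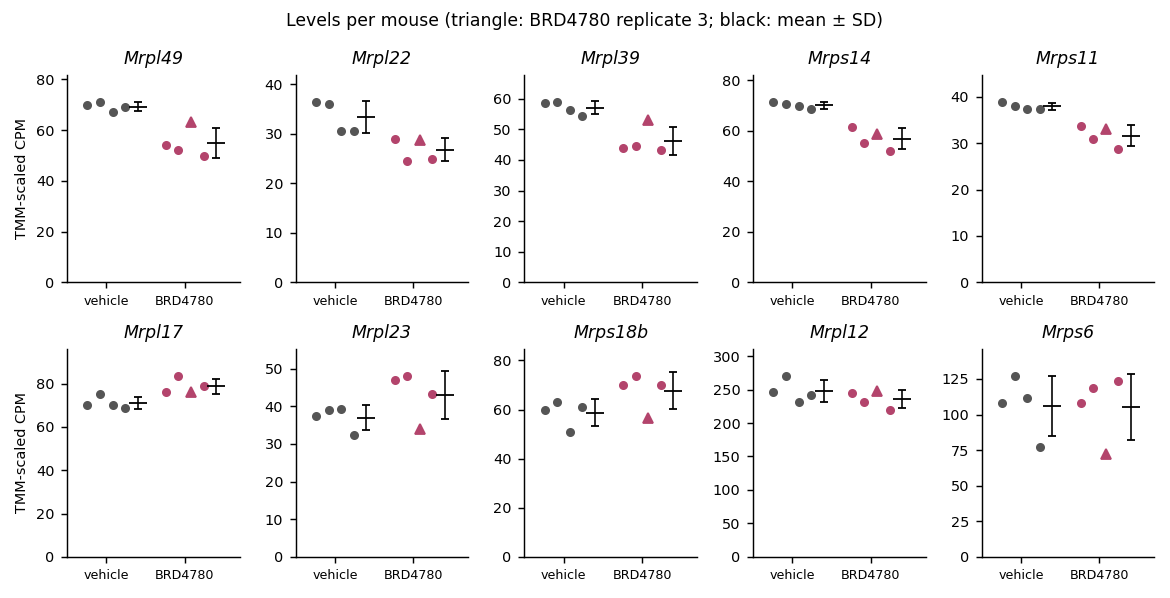
TMM-scaled CPM (vertical axes, from 0) of 10 genes in each of the 4 vehicle mice (grey) and 4 treated mice (purple), with mean ± SD in black and a triangle for BRD4780 replicate 3. The treated mice of Mrpl49, Mrpl22, Mrpl39, Mrps14 and Mrps11 lie below all vehicle mice, those of Mrpl17 above them, and the triangle of Mrpl23 and Mrps18b lies within the vehicle range.

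Some Mrps names do not mark a small subunit protein. Mrps18a, Mrps18b and Mrps18c encode related proteins, of which the first is placed in the large subunit and the other two in the small one. Mrps18a measured 79.7, 81.3, 72.6 and 74.3 CPM with vehicle and 69.3, 63.9, 73.8 and 66.6 CPM with BRD4780, a log2 fold change of -0.17 ± 0.07 (edgeR adjusted p = 0.191). Mrps18b measured 60.0, 63.1, 50.9 and 61.1 CPM with vehicle and 70.2, 73.7, 56.7 and 69.9 CPM with BRD4780. For Mrps18b the log2 fold change was 0.20 ± 0.10 (edgeR adjusted p = 0.243), and 0.28 without replicate 3, whose treated value was the only one inside the vehicle range (adjusted p = 0.0397). Mrps18c overlapped fully, at 31.8 to 38.1 CPM and 31.8 to 37.1 CPM. The related genes thus covered most of the range of the small subunit names, and whether they differ from each other in response was not tested. Mrps30, also a large subunit protein in the mammalian structure, measured 44.9 to 47.5 CPM with vehicle and 40.4 to 46.8 CPM with BRD4780 (log2 fold change -0.05 ± 0.07). Mrps36 belongs to the oxoglutarate dehydrogenase complex of the citric acid cycle rather than to the ribosome, and had a log2 fold change of -0.12 ± 0.09 (62.3 to 78.9 CPM against 59.1 to 69.5 CPM).

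In both subunits most genes lay below 0 in the comparison of treated with vehicle mice. By name these were 38 of 47 large and 25 of 29 small subunit genes, with medians of -0.14 and -0.11, or -0.15 and -0.10 without treated replicate 3. By place in the structure the medians were the same, -0.14 over 49 genes and -0.11 over 26. Summed over genes, the large subunit had 3120 ± 114.4 CPM with vehicle and 2908 ± 105.3 CPM with BRD4780, which is 93.2%. The small subunit had 1673 ± 68.8 CPM and 1569 ± 61.7 CPM, which is 93.8%. The ratio of the large to the small sum was 1.87, 1.85, 1.85 and 1.89 in the vehicle mice and 1.82, 1.84, 1.92 and 1.83 in the treated mice. The ratio overlapped between the groups, with means of 1.87 ± 0.018 and 1.85 ± 0.045. Treated replicate 3 alone gave this overlap and held the highest value of all. Treated replicates 1, 2 and 4, at 1.82 to 1.84, lay slightly below every vehicle mouse, the lowest of which had 1.85. The ratio was not tested. The median log2 fold changes of the subunits differed by -0.03, large minus small, and by -0.05 without treated replicate 3, and no test of this difference was made.

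Mouse by mouse, the treated animals differed in how far their genes lay below the vehicle mean. On the log2 CPM scale the median deviation of the 76 genes from the vehicle mean was 0.03, 0.06, -0.04 and -0.04 in the vehicle mice and -0.07, -0.17, -0.09 and -0.17 in the treated mice. Genes below the vehicle mean numbered 23, 7, 56 and 57 in the vehicle mice and 48, 61, 62 and 61 in the treated mice. So vehicle replicates 3 and 4 were also slightly low in most genes, and treated replicate 1 overlapped most with the vehicle mice. In treated replicate 1, large subunit genes had a median of -0.08 and small subunit genes of -0.03, the widest gap between subunits in a mouse.

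**Figure D3:**
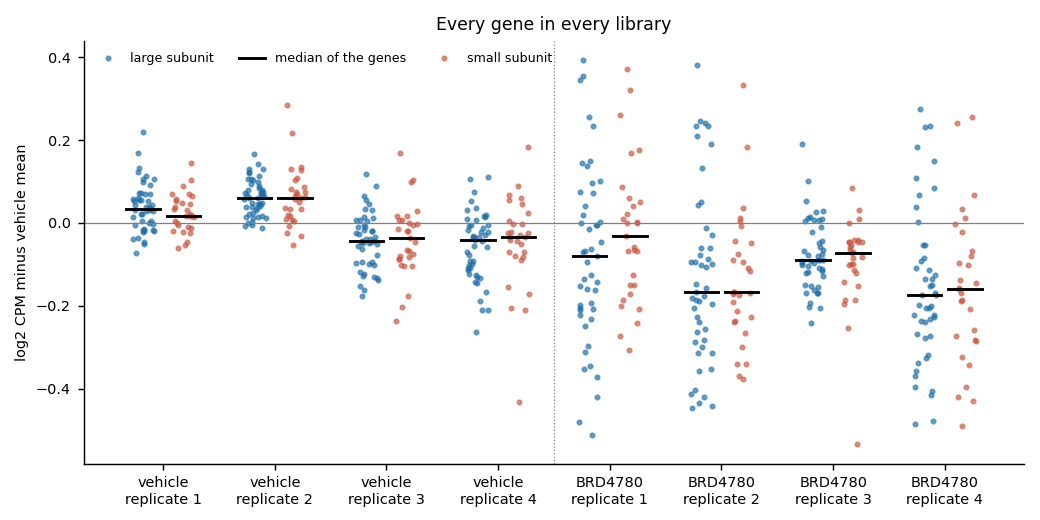
Each point is 1 gene in 1 mouse, plotted as its log2 CPM minus the mean log2 CPM of the vehicle mice, for large (blue) and small (red) subunit genes, with black lines at the medians. The medians lie between -0.04 and 0.06 in the vehicle mice and between -0.17 and -0.03 in the treated mice, and the points of treated replicate 3 are drawn closer together than those of the other treated mice.

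Treated replicate 3 had a narrow spread of the 76 genes around its median: the interquartile range of its deviations was from -0.12 to -0.04, against -0.20 to 0.05, -0.26 to -0.05 and -0.28 to -0.07 in treated replicates 1, 2 and 4. Among the 63 genes with a log2 fold change below 0, the highest treated mouse was replicate 3 in 29, replicate 1 in 25, replicate 2 in 4 and replicate 4 in 5. Replicate 3 was the lowest in 9 of them. Among the 13 genes above 0, the lowest treated mouse was replicate 3 in 8, replicate 2 in 3 and each of the others in 1.

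Without treated replicate 3, edgeR with Benjamini-Hochberg adjustment called 16 of the 76 genes lower, 12 large and 4 small, against 11.3% of all genes. It called 3 genes higher, Mrpl23, Mrpl54 and Mrps18b, against 12.1% of all genes. As shares of the 76 genes these are 21.1% and 3.95%. The 12 lower large subunit genes were 25.5% of their 47, and the 4 lower small subunit genes 13.8% of their 29. The share of the small subunit was near the 11.3% of all genes. Its 4 genes were Mrps11, Mrps14, Mrps22 and Mrps27. The median log2 fold change over the 76 genes was -0.13 in that fit and -0.12 with all mice.

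**Figure D4:**
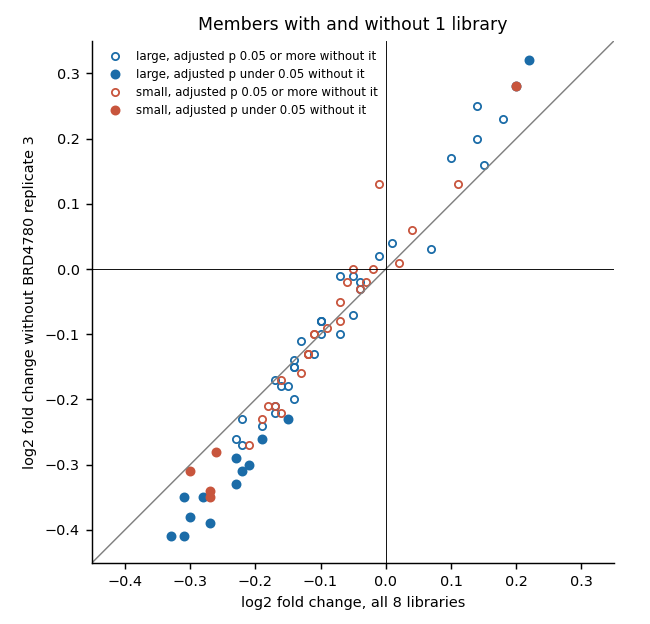
The log2 fold change of each gene over all 8 libraries (horizontal axis) is plotted against the value without BRD4780 replicate 3 (vertical axis), with large subunit genes in blue, small ones in red, and a diagonal of equal values. Filled points, 16 below 0 and 3 above, had an edgeR adjusted p under 0.05 without that mouse, and the points of Mrpl54 and Mrps18b coincide at 0.20 and 0.28.

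Tests that treat the libraries differently gave between 0 and 22 calls. DESeq2 called Mrpl39, Mrpl42, Mrpl49, Mrps11 and Mrps14 lower and 0 genes higher, against 3.84% lower and 6.43% higher of all genes; its adjusted p-values were 0.0282, 0.0419, 0.0132, 0.0312 and 0.00491. Limma's voom with sample weights called 21 of the 76 genes lower, against 11.1% of all genes, and 1 higher, Mrpl54, against 12.3%. Of the 22 genes called by voom, 16 were also called by edgeR without replicate 3, which is 16 of the 19 genes there. All 5 genes called by DESeq2 were called by voom.

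Levels were compared between genes only as CPM per kilobase of the longest coding transcript, as means of the vehicle mice. Mrpl12, the stalk protein, led with 188.1 ± 12.6 CPM per kb, followed by Mrps21 with 185.0 ± 18.2, and these neighbours did not differ beyond their spread. Next came Mrpl42 with 153.3 ± 10.6. Mrps6, at rank 5, had 125.4 ± 24.6, which overlaps within its SD with Mrpl42. At the other end stood Mrpl19 with 5.49 ± 0.333 and Mrpl47 with 6.46 ± 0.358 CPM per kb. With the length of all exons merged in place of the transcript, Mrpl12 and Mrps21 stayed at ranks 1 and 2, whereas Mrpl42 moved from rank 3 to rank 35 of 76. The order therefore depends on the transcript model, and the counts per gene do not show which transcripts were present.

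Mrps6, which encodes a small subunit protein, had the least certain value of the 76 genes. It measured 107.9, 127.1, 111.8 and 77.4 CPM with vehicle and 108.1, 118.6, 72.0 and 123.3 CPM with BRD4780, for a log2 fold change of -0.01 ± 0.18. Vehicle replicate 4 and treated replicate 3 were the low mice. In GENCODE M21 on GRCm38 the gene lies on the plus strand at chr16:92058270-92112227, and its exons overlap on the same strand those of Slc5a3, a myo-inositol transporter gene. Slc5a3 measured 196.2, 251.3, 231.5 and 135.0 CPM with vehicle and 174.3, 209.6, 101.7 and 224.4 CPM with BRD4780, and was lowest in the same mouse of each group. Reads in the shared exons can be assigned to either gene, and the part of this overlap in the values of Mrps6 was not tested.

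The genes lie on 17 chromosomes, and many share a start region with another gene. For 32 of the 76, or 42.1%, a protein-coding gene starts on the opposite strand within 1000 bases upstream of or over the gene's own start. This held for 2382 of 21938 protein-coding genes in the annotation, or 10.9%. That share includes genes not tested here, and the share among tested genes alone was not taken. Mrpl46 and Mrps11, a large and a small subunit gene, face each other, and their log2 fold changes were -0.13 and -0.26. Mrpl49 (chr19:6053622-6057785, minus strand) starts 59 bases from Fau, a cytosolic ribosomal protein gene, and Mrps12 starts 172 bases from Sars2, the mitochondrial seryl-tRNA synthetase gene. Log2 fold changes were -0.33 for Mrpl49 and 0.16 ± 0.11 for Fau. For Mrps12 it was -0.12 and for Sars2 -0.02 ± 0.10. Over the 26 tested partners that are not mitochondrial ribosomal protein genes the median was -0.01, with 14 below 0 and 0 past an edgeR adjusted p of 0.05. The 32 genes with such a partner had a median of -0.13 and the 44 without one -0.12. Exons of 27 of the 76 genes overlap exons of a gene on the opposite strand, and whether the counting separated the strands is not stated.

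Promoter sequence was taken from RefSeq (GRCm38.p6), in windows from 250 bases before to 50 bases after the start, which matched 67 of the 76 genes. Motifs of factors known from nuclear genes of mitochondrial proteins were searched on both strands, and a match is a description of letters and not evidence of binding. The core of nuclear respiratory factor 1 (NRF1), GCGCANGCG, was in 15 of the 67, or 22.4%, against 14.0% of 10554 tested genes. The ETS motif bound by GABP, CCGGAAG, was in 24, or 35.8%, against 18.3%. The YY1 motif, AAGATGGC, was in 12, or 17.9%, against 4.92%. Of all 32851 windows of this length in the table, 6.25% held the NRF1 core, 8.86% the ETS motif and 2.75% the YY1 motif. Other motifs were no more frequent in these genes than in the tested genes: the E-box CACGTG was in 7.46% against 11.5%, the GC box GGGCGG in 49.3% against 66.6%, and the TATA box TATAAA in 7.46% against 9.17%. By subunit, the NRF1 core was in 11 of 41 large and 4 of 26 small subunit genes, the ETS motif in 13 and 11, and the YY1 motif in 6 and 6.

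To show where the NRF1 core stands, the 140 bases before the start are printed for the 7 named genes that hold it there, whose log2 fold changes ran from -0.31 for Mrpl22 to 0.15 for Mrpl17, 5′ to 3′ on the gene's strand, with the core on either strand in capitals.
Mrpl10 (chr11:97041442-97041581, plus strand): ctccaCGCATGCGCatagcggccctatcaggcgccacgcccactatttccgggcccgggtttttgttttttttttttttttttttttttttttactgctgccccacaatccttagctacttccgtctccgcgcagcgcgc
Mrpl12 (chr11:120484497-120484636, plus strand): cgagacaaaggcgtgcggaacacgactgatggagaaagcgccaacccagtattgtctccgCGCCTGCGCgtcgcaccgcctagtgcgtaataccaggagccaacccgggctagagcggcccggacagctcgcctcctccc
Mrpl17 (chr7:105811088-105811227, minus strand): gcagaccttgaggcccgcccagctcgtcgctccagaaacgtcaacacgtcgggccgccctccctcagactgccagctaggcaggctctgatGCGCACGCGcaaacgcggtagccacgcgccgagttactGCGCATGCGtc
Mrpl22 (chr11:58171524-58171663, plus strand): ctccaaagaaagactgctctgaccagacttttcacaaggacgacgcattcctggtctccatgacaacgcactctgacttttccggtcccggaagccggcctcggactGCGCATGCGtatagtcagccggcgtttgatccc
Mrpl39 (chr16:84735245-84735384, minus strand): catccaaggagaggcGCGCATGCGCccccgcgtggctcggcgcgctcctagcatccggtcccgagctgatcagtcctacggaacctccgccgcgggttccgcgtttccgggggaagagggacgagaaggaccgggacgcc
Mrpl45 (chr11:97315576-97315715, plus strand): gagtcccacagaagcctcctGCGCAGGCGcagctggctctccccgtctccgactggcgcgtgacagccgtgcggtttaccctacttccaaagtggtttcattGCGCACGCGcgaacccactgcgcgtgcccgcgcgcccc
Mrps21 (chr3:95871515-95871654, minus strand): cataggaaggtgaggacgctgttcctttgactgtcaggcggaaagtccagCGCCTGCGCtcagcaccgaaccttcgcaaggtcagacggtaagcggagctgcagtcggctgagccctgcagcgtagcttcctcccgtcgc

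Mrpl17, with a log2 fold change of 0.15, and Mrpl45, with -0.23, each hold 2 separate cores in the printed stretch, and Mrpl39 holds 1 that reads on both strands. Genes with the core ran from -0.31 to 0.20 with a median of -0.11, and those without had a median of -0.13. For the ETS motif the medians were -0.10 with and -0.14 without it. Genes with either motif lay on both sides of 0.

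The YY1 motif stood after the start in 8 of its 12 genes when read on the gene's strand, at 12 to 37 bases, in a window that ends 50 bases after the start. These stretches are printed with the motif in capitals because the values of the genes that hold it are described next.
Mrpl35 (chr6:71823746-71823769, minus strand): caggctgcAAGATGGCggcttcca
Mrpl37 (chr4:107066825-107066848, minus strand): cacgggcaAAGATGGCggcgtcca
Mrpl42 (chr10:95501907-95501930, minus strand): attgaagcAAGATGGCgagcgcgc
Mrpl49 (chr19:6057724-6057747, minus strand): gaggcgccAAGATGGCagcagcgg
Mrps18a (chr17:46111007-46111030, plus strand): tgcgttccAAGATGGCggccctca
Mrps24 (chr11:5707652-5707673, minus strand): gccggcccAAGATGGCgtggtc
Mrps27 (chr13:99344792-99344815, plus strand): tgcgctccAAGATGGCggctccca
Mrps7 (chr11:115604150-115604173, plus strand): cagcggccAAGATGGCtgcccccg

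The 12 genes with the YY1 motif all had log2 fold changes below 0, from -0.33 to -0.12, with a median of -0.20 against -0.10 for the 55 without it. Mrpl49, Mrpl42 and Mrps27 are among them. Of all 76 genes, 63 lay below 0, or 82.9%. Medians with and without the motif were -0.10 and -0.13 for the E-box and -0.11 and -0.15 for the GC box. For the TATA box they were -0.16 and -0.12. Whether any motif goes with lower values was not tested. Yy1 itself had 40.0 ± 3.97 CPM with vehicle and 37.2 ± 1.23 CPM with BRD4780, a log2 fold change of -0.10 ± 0.09 (edgeR adjusted p = 0.468). Nrf1 had 0.19 ± 0.14 and Gabpa -0.03 ± 0.07. These 3 factors fall outside the rule for named genes. Their motifs are those that were more frequent here than in the tested genes, and factors of the other motifs searched are not given.

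Genes that work with the mitochondrial ribosome were read from lists written for this purpose, and in each of them 0 genes passed an edgeR adjusted p of 0.05 over all 8 mice. Without treated replicate 3, against 11.3% lower and 12.1% higher of all genes, edgeR called 7 of 15 translation factors lower and 1 higher, 7 of 13 mitochondrial content genes lower, and 21 of 78 cytosolic ribosomal protein genes higher. In that fit it called 1 of 21 assembly genes lower and 2 higher, 1 of 4 transcription genes lower, 1 of 11 biogenesis regulators lower and 1 higher, and 0 of 5 mitoribosome proteins under other names. Mitoribosome proteins under other names had a median of 0.01 over 5 genes (0.02 without treated replicate 3). Among them Dap3, a small subunit GTPase, had 0.03 ± 0.06 and Chchd1 0.19 ± 0.09. Assembly factors and ribosomal RNA modifying enzymes had a median of -0.05 over 21 genes, 16 of them below 0, and of -0.09 without treated replicate 3. Within this list Trub2, a pseudouridine synthase, had 0.33 ± 0.10 and Mettl15, a ribosomal RNA methyltransferase, -0.53 ± 0.17, with edgeR adjusted p-values of 0.0869 and 0.103. Without treated replicate 3 these genes had 0.40 and -0.68, with edgeR adjusted p-values of 0.00838 and 0.0139.

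Translation factors of mitochondria had a lower median than the ribosomal proteins, -0.18 over 15 genes, 13 of them below 0. Without treated replicate 3 this median was -0.26. Tsfm, the nucleotide exchange factor of the elongation factor that delivers tRNA, measured 52.4, 57.0, 50.7 and 51.6 CPM with vehicle and 39.8, 35.7, 47.8 and 38.3 CPM with BRD4780. Its groups did not overlap, and the log2 fold change was -0.39 ± 0.10 (edgeR adjusted p = 0.0605), and -0.48 without replicate 3 (adjusted p = 0.00256). Gfm2, which recycles ribosomes after termination, measured 80.9 to 95.7 CPM with vehicle and 59.5 to 87.4 CPM with BRD4780 (log2 fold change -0.36 ± 0.12). The edgeR adjusted p of Gfm2 was 0.105 with all mice and 0.00353 without replicate 3, where the log2 fold change was -0.48.

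Genes of mitochondrial transcription had a median of -0.14 over 4 genes (-0.19 without treated replicate 3). Tefm, the elongation factor of the mitochondrial RNA polymerase, had -0.31 ± 0.10 and Tfam, which packages and activates the mitochondrial genome, -0.13 ± 0.07. The edgeR adjusted p of Tefm was 0.0965 with all mice and 0.0171 without replicate 3, where the log2 fold change was -0.38. Regulators of mitochondrial biogenesis had a median of 0.01 over 11 genes (0.06 without treated replicate 3). Among them the coactivator gene Ppargc1b measured 6.86, 6.22, 7.43 and 7.11 CPM with vehicle against 3.68, 3.56, 5.63 and 3.35 CPM with BRD4780. All treated mice were lower, replicate 3 least so, and the log2 fold change was -0.74 ± 0.19 (edgeR adjusted p = 0.0604). Without that mouse it was -0.95 (adjusted p = 0.00240). Pprc1, a coactivator of the same family, had 0.45 (edgeR adjusted p = 0.0933), the opposite sign, and 0.52 without replicate 3 (adjusted p = 0.0243).

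Other mitochondrial proteins and the cytosolic ribosome give the setting. General mitochondrial content, 13 genes of the respiratory chain, import and matrix, had a median of -0.26, with 13 of 13 below 0. This median was -0.35 without treated replicate 3. Cs, which encodes citrate synthase, measured 348.7 to 400.9 CPM with vehicle and 264.1 to 354.7 CPM with BRD4780 (log2 fold change -0.30 ± 0.10, edgeR adjusted p = 0.114). Without treated replicate 3 the log2 fold change of Cs was -0.38 (edgeR adjusted p = 0.00963). Hspd1, the matrix chaperonin, had -0.47 ± 0.16, and its treated replicate 3, at 713.2 CPM, lay within the vehicle range of 638.4 to 765.6 CPM while the others were at 413.7 to 467.7 CPM. The edgeR adjusted p of Hspd1 was 0.116 with all mice and 7.33e-04 without replicate 3, where the log2 fold change was -0.67. Cytosolic ribosomal proteins had a median of 0.12 over 78 tested genes (0.19 without treated replicate 3), with 68 above 0. Rpl4 and Rps20 had 0.24 ± 0.10 and 0.33 ± 0.14, with edgeR adjusted p-values of 0.178 and 0.182. Without replicate 3 they had 0.31 and 0.46, with edgeR adjusted p-values of 0.0116 and 0.00483. The medians of the mitochondrial and the cytosolic ribosomal proteins, -0.12 and 0.12, lay on opposite sides of 0, and no test of that difference was made.

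**Figure D5:**
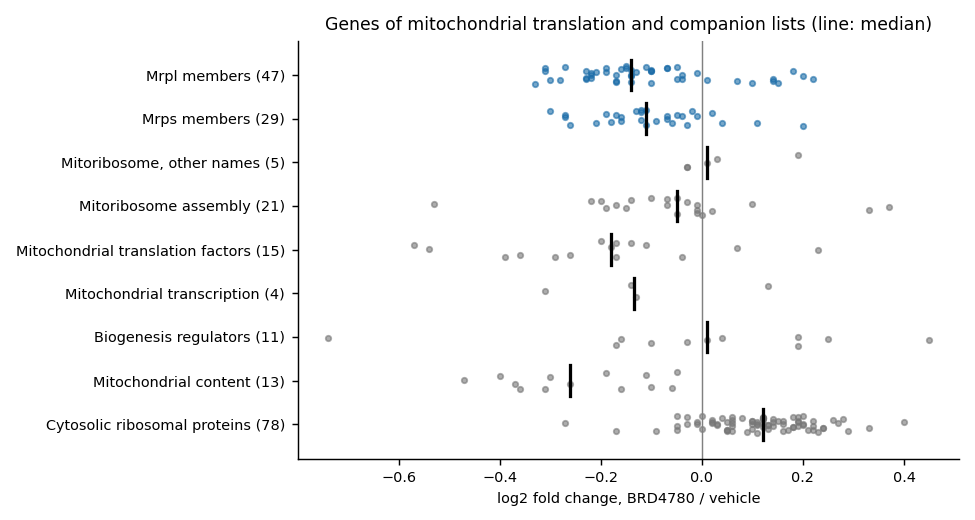
Log2 fold changes (horizontal axis) are shown for the Mrpl and Mrps genes (blue) and for 7 companion lists (grey), with 1 point per tested gene, the number of genes in brackets and a black line at each median. Medians run from -0.26 for mitochondrial content to 0.12 for cytosolic ribosomal proteins, with the mitochondrial ribosomal protein genes at -0.14 and -0.11.

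Cell type markers differed between the mice as well. The summed level of 10 proximal tubule markers was 61098 to 70394 CPM in the vehicle mice and 51059, 38642, 67999 and 43462 CPM in treated replicates 1 to 4, so replicate 3 alone lay within the vehicle range. None of the 10 passed edgeR's adjusted p of 0.05, and their median log2 fold change was -0.14. Summed over 6 markers, the thick ascending limb had 3065 to 4119 CPM and 2021 to 3243 CPM, and 2 of the 6 were called lower. Podocyte markers summed to 52.3 to 128.8 CPM with vehicle and 184.9 to 280.9 CPM with BRD4780, with 2 of 5 called higher. Endothelial markers summed to 71.6 to 152.9 CPM and 152.1 to 204.9 CPM, with 1 of 5 called higher, and 1 of 4 distal convoluted tubule markers was called higher. No marker was called for collecting duct, intercalated cells, fibroblasts, leukocytes, erythrocytes or adipocytes. Median log2 fold changes were nonetheless -1.39 for erythrocyte and -1.96 for adipocyte markers. Of the 4 adipocyte markers, 2 had under 3 counts in some library, so their median rests partly on values near the floor. Erythrocyte sums were 477.0 to 1576 CPM with vehicle and 153.8 to 781.6 CPM with BRD4780, and adipocyte sums 71.1 to 202.2 and 52.1 to 142.7 CPM. Only 3 of the 5 erythrocyte markers had an entry, and no marker with an entry was at 0 in all libraries. The part of cell composition in the values of the mitochondrial ribosomal protein genes was not tested.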

How the data were processed

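Kidney mRNA of 8 mice was sequenced, and the authors deposited a table named as RSEM counts, whose values are estimated counts (RSEM expected counts) without normalization, read as such because they are not all whole and their totals differ. The submitters' processing notes name STAR 2.5.2b, RSEM 1.3.0, Picard and the builds mm10 and hg19, and give neither build a role. For annotation and strand setting the sources used here give nothing. RSEM divides reads that fit several genes by likelihood, so 15.1% to 28.9% of a library's values were not whole.

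The 22121 lines held 343 symbols on more than 1 line, which were collapsed to 21759 genes; Mrps10 and Mrps23 were among them. A further 1 column of values matched no sample and was not used. Counts were rounded, filtered with filterByExpr (minimum count 10) and scaled by TMM. BRD4780 and vehicle were compared over all 8 libraries by the quasi-likelihood F-test of edgeR 4.0.16 (R 4.3.3) with no covariate, two-sided, adjusted by Benjamini-Hochberg over 13474 genes at 0.05. Each SE was obtained as |log2 fold change| over the root of F. In a simulation of this comparison (13354 genes), a true difference of 1.25-fold was called in 2% of 50 genes, one of 1.5-fold in 48% and one of 2-fold in 92%. DESeq2 1.42.0, voom in limma 3.58.1, other scalings, no filter, equal totals and leaving out each mouse were alternatives. Gene positions are from GENCODE M21 (GRCm38), where 21805 of 22116 Ensembl identifiers were found.

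Genes named in the text are, per subunit, the 4 highest and 4 lowest log2 fold changes and the 2 highest and 2 lowest levels per kilobase, the 2 smallest p-values of each structural class and companion list, and the Mrps names whose place needs care. Mrpl11, Mrpl35, Mrpl37, Mrpl46, Mrpl53, Mrpl55, Mrps5, Mrps7, Mrps12, Mrps23, Mrps24, Slc5a3, Fau, Sars2, Yy1, Nrf1 and Gabpa fall outside this rule and were chosen after their values were seen, as members of a class or count, neighbours, or holders or factors of a motif. The genes, lists and rules were chosen with earlier results of these data known. Titles give the numbers 1161 and 1163 to a mouse of each group; the labels do not say what they mark, and replicate numbers used here follow the order of deposition and pair nothing.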

Additional observations from a re-analysis of the deposited data

Results flagged for a closer look

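Within groups of 4 mice, a value was picked out when its gap to the nearest other mouse exceeded Dixon's 95% critical share of the group's range, which chance does in about 1 in 20 groups; 70 groups were examined and 4 were picked out. Mrpl38 in vehicle replicate 2 was at 104.7 CPM, above the other vehicle mice at 90.9 to 92.6 CPM. Mrpl39 in BRD4780 replicate 3 was at 53.1 CPM, above the other treated mice at 43.3 to 44.5 CPM. Mrps27 in BRD4780 replicate 3 was at 32.1 CPM, above the others at 27.1 to 27.8 CPM. Mrps36 in BRD4780 replicate 4, the shallowest library, was at 59.1 CPM, below the others at 68.4 to 69.5 CPM.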

How the results depend on the processing

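The number of the 76 genes called was 0 in edgeR with all libraries, with RLE or upper-quartile scaling and without the low-count filter, 1 after thinning to equal totals (Mrpl49, a large subunit gene, 1 of 47), 5 with DESeq2 (3 large, 2 small) and 22 with voom and sample weights (15 large, 7 small). Leaving out each mouse gave 0 to 19 (large 0 to 14, small 0 to 5); the upper values were those without BRD4780 replicate 3 and the count was 0 without any other mouse. Over all genes 394 were called, 1359 with DESeq2, 3155 with voom and 31 to 3184 when a mouse was left out. Genes below 0 numbered 60 to 66 of 76 over these settings, and RLE and upper-quartile scaling moved the median of all genes from 0.01 to 0.00. The cause of these differences was not tested.

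With the shared title number as a replicate block, 4 libraries remained; 0 of the 76 genes and 41 of all genes were called, against 0 and 570 in the same 4 libraries without the block, a setting added after seeing the data. Deviations of same-numbered mice correlated at -0.0097 and -0.298, and nothing in the labels says that the numbers pair the mice. The large minus small difference of medians, -0.03, was -0.08 in both of these fits and -0.05 to 0.00 when a mouse was left out.

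Small values changed sign. Mrps10, at 0.02, was -0.04 with voom, -0.02 after thinning, -0.02 with the block, -0.01 in those libraries without it, and down to -0.04 without BRD4780 replicate 1 (-0.02 without vehicle replicate 3). Mrps6, at -0.01, was 0.08 with voom, 0.17 with the block and 0.14 without it, and ran from -0.14 (without vehicle replicate 4) to 0.13 (without BRD4780 replicate 3) over the mice left out. Mrps15, at 0.04, ran from -0.07 (without BRD4780 replicate 1) to 0.12 (without BRD4780 replicate 4), and Mrps30, at -0.05, was 0.00 without BRD4780 replicate 3. Of the 33 named genes, 14 passed the threshold without BRD4780 replicate 3, 15 with voom, 5 with DESeq2 and 1 after thinning. The shallowest library, at 5.74 M counts, limits the precision of its group.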
